A study of Homo sapiens with 93 samples.

Results

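The nuclear-encoded respiratory chain genes were taken as 57 Ensembl gene identifiers for autosomal subunit genes of the 5 complexes of oxidative phosphorylation. By the rule they come from the families NDUFA, NDUFB, NDUFC, NDUFS and NDUFV of complex I, SDH of complex II, UQCR and CYC1 of complex III, COX of complex IV and ATP5 of complex V. All 57 identifiers were found among the 14000 features of the deposited count table. The files and the reference tables used here do not pair Ensembl identifiers with gene symbols, so each gene is given by its identifier. Which identifier belongs to which complex was not determined, and the label of the set could not be checked against symbols.

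H3K36me3, trimethylation of histone H3 at lysine 36, was mapped in 93 human lymphoblastoid cell lines with CUT&Tag. Such lines are cultures of B cells made permanent with Epstein-Barr virus, and CUT&Tag directs a transposase to chromatin with an antibody and sequences the DNA that it cuts. Every line received the same antibody target, medium with 20% serum and no treatment named in the labels, and gave 1 library, so the lines form 1 group with no contrast between conditions. The labels mention 4 culture batches of about 20 to 35 lines without tying a line to a batch, so batch and line cannot be told apart.

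The respiratory chain passes electrons from NADH and succinate to oxygen and pumps protons across the inner mitochondrial membrane. Complex I accepts electrons from NADH, complex II oxidises succinate, complex III passes electrons to cytochrome c, complex IV reduces oxygen to water, and ATP synthase, complex V, uses the proton gradient to make ATP. Most of the subunits are encoded in the nucleus and the rest in the mitochondrial genome. SETD2, a methyltransferase that travels with elongating RNA polymerase II, places H3K36me3 on the bodies of transcribed genes, where it accumulates toward their 3′ ends. It marks transcribed gene bodies and is not itself a measure of RNA.

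NRF1, GABPA of the ETS family and YY1 are transcription factors known to act on nuclear respiratory genes. RefSeq (GRCh38.p14) lists 80 autosomal protein-coding genes with symbols of these families, and 64 of them have a promoter window from 250 bases before to 50 after the gene start in the table used. These windows describe the families by symbol and were not tied to the identifiers of the count table. The NRF1 letters GCATGCGC, searched on both strands, were present in 13 of the 64 windows (20.3%) and in 4.19% of the 15100 promoters of autosomal protein-coding genes. The YY1 letters AAGATGGCG were present in 8 (12.5%) and in 2.79%. Promoters that held both were 4, those of ATP5PF, NDUFA6, NDUFS7 and SDHB, and their matches are shown for that reason, with 1 further match each for complexes III and IV. Capitals mark the motif, which reads as its reverse complement where it lies on the opposite strand, and each stretch runs 5′ to 3′ on the strand of the gene.
ATP5PF, ATP synthase, NRF1 letters on the opposite strand, chr21:25735157-25735184, minus strand: cactcaaagaGCGCATGCgtacagagca
ATP5PF, ATP synthase, YY1 letters, chr21:25735093-25735121, minus strand: aggcgaagaaAAGATGGCGgaggctgtgc
NDUFA6, complex I, NRF1 letters, chr22:42090921-42090948, minus strand: ctgtagatgaGCATGCGCagcacccacc
NDUFA6, complex I, YY1 letters, chr22:42090729-42090757, minus strand: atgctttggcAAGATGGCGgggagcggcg
NDUFS7, complex I, NRF1 letters, chr19:1383824-1383851, plus strand: tccggtttccGCATGCGCtccgagccgc
NDUFS7, complex I, YY1 letters, chr19:1383914-1383942, plus strand: ggccgaggccAAGATGGCGgtgctgtcag
SDHB, complex II, NRF1 letters, chr1:17054215-17054242, minus strand: agccaaatggGCATGCGCcgctactgcg
SDHB, complex II, YY1 letters, chr1:17054004-17054032, minus strand: gtcaggagccAAGATGGCGgcggtggtcg
UQCRC1, complex III, YY1 letters, chr3:48609605-48609633, minus strand: ctgcagctggAAGATGGCGgcgtccgtgg
COX5B, complex IV, NRF1 letters, chr2:97645916-97645943, plus strand: gcagagctggGCATGCGCaatttccgcc

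All 8 YY1 matches lay on the strand of the gene, and 7 of them were centred after its start. Strand and position were not counted for other promoters with the YY1 letters, so these counts cannot be read as particular to the families. The ETS letters CCGGAAG occurred in 19 (29.7%, against 14.4%), and the cAMP response element TGACGTCA in 5 (7.81%, against 2.65%). SP1 letters GGGCGG were about as frequent in the families (59.4%) as in all promoters (58.9%), and so were CCAAT (32.8% and 36%) and TATAAA (9.38% and 9.71%). A match describes the letters in the window and does not show binding.

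Library totals ran from 2842955 to 24325746 counts, with a median of 14883653. The 2 covariates used for every library were its log2 total and its dynamic range, the median level of the top quintile of features minus that of the bottom quintile, which ran from 4.17 to 4.99 log2 units with a median of 4.52. Levels are given as log2 CPM, that is, relative to the TMM-scaled total of the library with a prior count of 2, and are not divided by length. All 57 genes passed the filter of at least 10 counts in at least 47 libraries, as did 13915 of the 14000 features. Markers of B cells and of other cell types could not be looked up without symbols, so the labelled cell type was not checked.

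Respiratory chain genes carried H3K36me3 counts in every line, at levels below those of the median feature. The median of their mean levels was 4.98 log2 CPM, against 5.40 for all features, whose quartiles were 4.13 and 6.50. Of the 57 genes, 21 lay above the median feature, 3 in the top quintile and 14 in the bottom quintile. In each line the median over the 57 genes was below the median over all features, with a difference of -0.31 ± 0.158 log2 units (SD, n = 93) that was negative in 93 of 93 lines and ran from -0.67 to -0.02. Together the genes held 0.244% ± 0.0160 (SD, n = 93) of the counts of a library, between 0.205% and 0.278%. Set against the features within 100 rows of the table on either side, the median gene stood at percentile 41.3, close to its percentile of 41.2 among all features.

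A longer interval collects more counts at the same density of the mark. The RefSeq genes of the families have a median span of 9589 bases, against 24490 bases over 19122 autosomal protein-coding genes, and range from 630 to 174419 bases. Which interval was counted is not stated in the labels or files, so the part of length in the lower level was not tested, and the order of genes below is an order of counts per feature.

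The highest level belonged to ENSG00000130414, at 7.63 ± 0.163 log2 CPM (SD, n = 93), with a lowest line at 7.25, a median of 7.64 and a highest line at 7.94. Its median count was 2997. Next came ENSG00000073578 with a mean of 7.28 (6.65 to 7.76), then ENSG00000023228 with 6.77 (6.23 to 7.47), ENSG00000143252 with 6.71 (6.26 to 7.15) and ENSG00000117118 with 6.67 (6.28 to 7.16). Those last 3 means lay within 1 SD between lines of each other, and their order within lines was not tested. At the other end stood ENSG00000183648, at 2.18 ± 0.383 (1.21 to 3.25, median 2.17), with a median count of 60. ENSG00000140990 with 2.21 (0.48 to 3.05), ENSG00000127184 with 2.36 (1.63 to 3.11) and ENSG00000135940 with 2.68 (0.96 to 3.21) overlapped it across lines. The lowest count of any gene in any line was 7, so counting error is large at this end. The deposited scores ordered the lines much as the counts did, with a Spearman correlation per gene between 0.953 and 0.989 over the 93 lines.

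**Figure D1:**
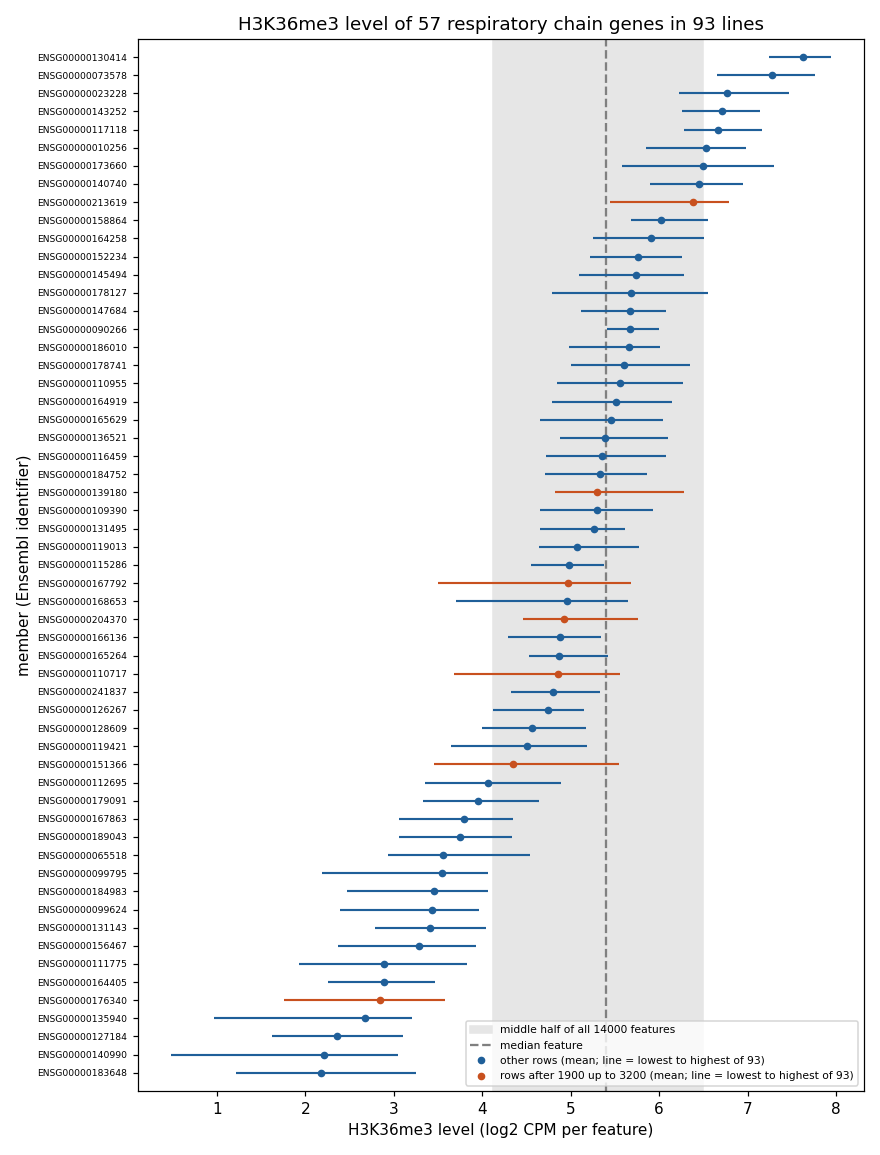
H3K36me3 level (log2 CPM per feature, horizontal axis) of each of the 57 genes (vertical axis, ordered by mean) in 93 lines; the legend gives what the marks stand for. The mean rises from 2.18 for ENSG00000183648 to 7.63 for ENSG00000130414, and neighbouring genes overlap.

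Most of the genes varied little between lines. The median coefficient of variation of CPM was 0.183, against 0.206 over all features, and 40 of 57 genes lay below the latter. ENSG00000090266 was the steadiest, with 0.0826 and a level of 5.67 ± 0.117 log2 CPM (SD, n = 93). ENSG00000151366 was the most variable, with 0.351, and ranged from 3.45 to 5.55 with a median of 4.51. After both covariates were removed, 6 genes had a line more than 1 log2 unit from that gene's median. The same count was not made over all features. ENSG00000140990 had 3 such lines, the farthest at -1.49, and ENSG00000167792 had 2. ENSG00000135940 at -1.57, ENSG00000168653 at -1.49, ENSG00000111775 at -1.02 and ENSG00000110717 at 1.02 had 1 each. ENSG00000140990, ENSG00000135940 and ENSG00000111775 are low genes, with lowest counts in any line of 9, 7 and 21. ENSG00000167792 and ENSG00000110717 lie in the stretch with a drop described below.

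Relative to features of like mean count, the genes were steady as well. The measure is the log2 ratio of a gene's own dispersion to the dispersion trend over all features. Dispersion is the spread beyond counting error with both covariates in the fit, and edgeR's estimate for a gene is drawn toward the trend. The median ratio was -1.06 for the genes and -0.52 for all tested features. Below the trend lay 48 of 57 genes (84.2%) and 68.4% of features, and 27 genes were in the lowest quartile of all features. The lowest ratios were those of ENSG00000117118 (-2.64), ENSG00000090266 (-2.35) and ENSG00000241837 (-2.17).

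By edgeR's goodness-of-fit test with Benjamini-Hochberg adjustment, 4 of 57 genes (7.02%) varied more than the trend, where 18.4% of all tested features did. ENSG00000167792 had a log2 ratio of 1.54 (adjusted p = 3.41e-16), ENSG00000151366 of 1.41 (adjusted p = 7.34e-13), ENSG00000110717 of 1.05 (adjusted p = 3.76e-07) and ENSG00000173660 of 0.54 (adjusted p = 0.0138). At an unadjusted p under 0.05 the count was 5 (8.77%), against 21.8% of features. The call of ENSG00000173660 ended without the 10 shallowest libraries, where the ratio was 0.47 (adjusted p = 0.0532), and without the 7 libraries with the earliest drop described below, where it was 0.37 (adjusted p = 0.161). It also ended with 5 or with 10 principal components as further covariates, where its ratio was -0.27 and -0.33. The call of ENSG00000110717 ended in the same settings with components, at adjusted p = 0.247 and 0.48. DESeq2's dispersion outliers included 0 of the 57 genes and 1.83% of features.

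**Figure D2:**
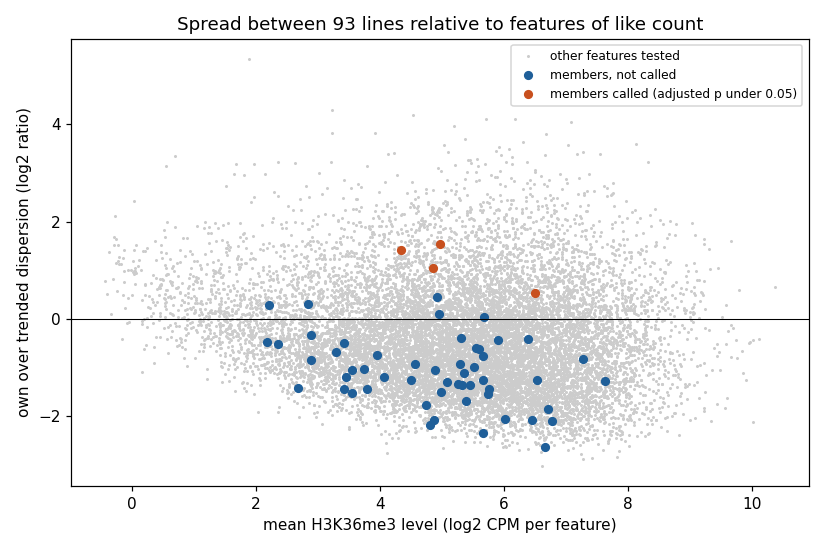
Log2 ratio of own to trended dispersion (vertical axis) against mean level (log2 CPM per feature, horizontal axis) for all tested features and the 57 genes, as the legend gives. The line at 0 is the trend; 48 of the 57 genes lie below it, and ENSG00000167792 is highest among them at 1.54.

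Of the 4 variable genes, 3 shared a place in the table. ENSG00000167792, ENSG00000110717 and ENSG00000151366 stand at rows 2566, 2572 and 2663, within a stretch after row 1900 and up to row 3200. A drop in counts was fitted there at a row of each library's own, with a size common to all libraries of 0.865 log2 units. The fit gave every library a drop, so it does not test whether a library has none. Each library's last row before this drop was found from the features that are not respiratory chain genes, and lay between rows 2017 and 3047 with a median of 2668. Of the 7 genes in the stretch, 3 were called variable (42.9%, against 46.9% of its 1290 tested features). Of the 50 genes outside it, 1 was called (2%, against 15.5% of features), and with the stretch left out of the fit that count was again 1. The cause of the drop was not tested.

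For these 7 genes the drop sorts the lines into those in which the gene lies before it, with more counts, and those in which it lies after. ENSG00000167792 lay before the drop in 70 lines, with a mean of 5.25 ± 0.167 log2 CPM (SD, 4.81 to 5.68), and after it in 23 lines, with 4.12 ± 0.319 (3.51 to 4.61). The groups did not overlap, and the means differed by 1.13. ENSG00000110717 gave 5.13 ± 0.192 (4.54 to 5.56) in 67 lines before and 4.17 ± 0.244 (3.68 to 4.65) in 26 lines after, a difference of 0.95 with a small overlap. ENSG00000151366 gave 4.76 ± 0.233 (4.14 to 5.55) in 51 lines before and 3.84 ± 0.207 (3.45 to 4.52) in 42 lines after, a difference of 0.93, also with overlap.

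ENSG00000213619, at row 2324, was lower in the 7 lines whose drop came before its row, with 5.63 ± 0.0906 (5.44 to 5.72) against 6.45 ± 0.167 (5.95 to 6.79) in the other 86. These 7 are the libraries with the earliest drop left out in other places, and were picked by the row of this gene. ENSG00000204370, at row 2763, had 21 lines before the drop at 5.47 ± 0.176 (5.16 to 5.76) and 72 lines after it at 4.77 ± 0.140 (4.46 to 5.06). ENSG00000139180, at row 2927, lay before the drop in 4 lines, at 6.22 ± 0.0887 (6.09 to 6.29), and after it in 89, at 5.26 ± 0.162 (4.83 to 5.65). In these 3 genes the groups of lines did not overlap. ENSG00000176340, at row 2440, had the lowest level of the 7, and its 81 lines before the drop (2.94 ± 0.312) overlapped the 12 after it (2.18 ± 0.263).

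The groups were thus apart in 4 of the 7 genes, against 30.1% of the 904 other features of the stretch that could be compared. The median difference was 0.93 log2 units in the genes and 0.84 in those features, whose differences ran from -0.31 to 2.78. With a term for the drop in the model, the SD of the residual level of ENSG00000167792 went from 0.438 to 0.179, that of ENSG00000151366 from 0.430 to 0.193 and that of ENSG00000110717 from 0.365 to 0.177. ENSG00000166136 at row 1899 and ENSG00000110955 at row 3280 are the nearest genes of the set outside the stretch.

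**Figure D3:**
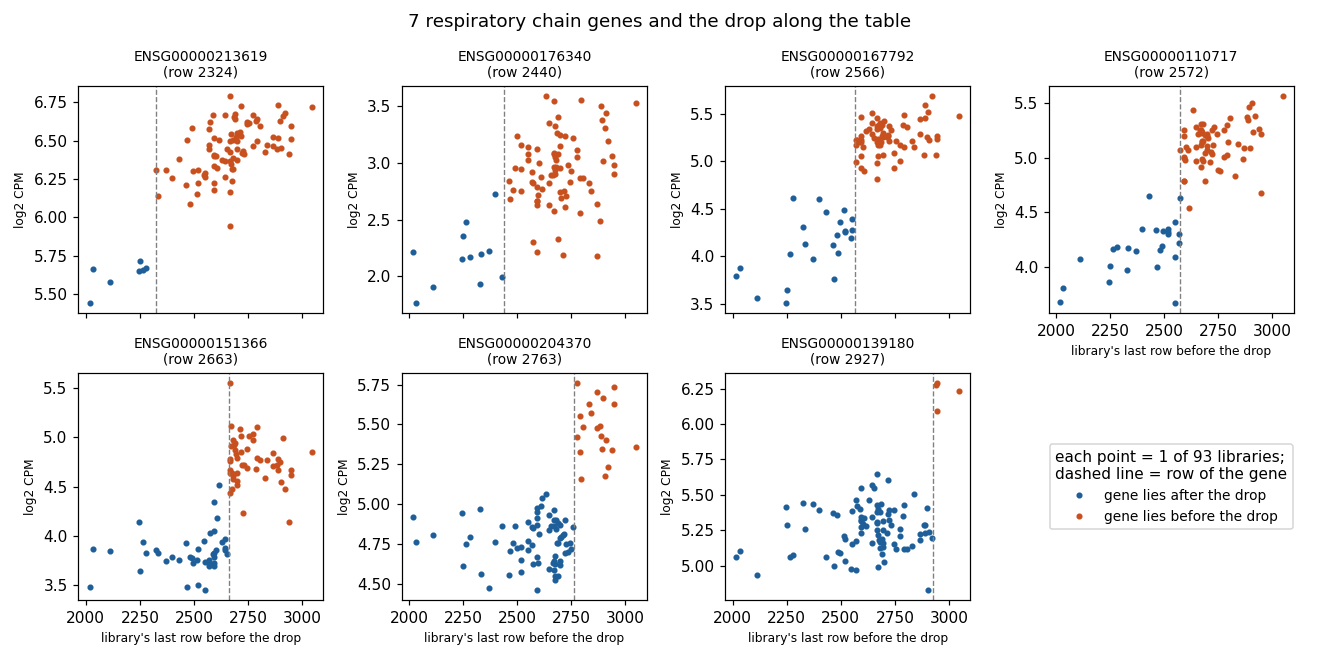
Level (log2 CPM, vertical axes) of the 7 genes in the stretch against the last row before the drop in each library (horizontal axes); each point is 1 of 93 libraries and the dashed line is the gene's own row. In ENSG00000167792 the 70 lines with the gene before the drop all lie above the 23 with the gene after it.

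The levels of most respiratory chain genes rose with the dynamic range of the library. By edgeR's quasi-likelihood test, with library total in the same fit, 50 of 57 genes changed with it, where 80.3% of all features did. Higher with a wider range were 48 genes, against 44.7% of features, and lower were 2, against 35.6%. The median change was 0.77 log2 units per log2 unit of range in the genes and 0.18 over all features, and 52 of 57 estimates were positive, against 55.4%.

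Since the range is the gap between high and low features, low features tend to fall and high ones to rise with it by construction. Most of the genes rose in every quintile by level. In the bottom quintile of features by level 13 of 15 genes were higher, against 14.5% of the features of that quintile. In the next quintiles 10 of 11 genes (36.4% of features), 16 of 20 (48.9%), 7 of 8 (58.1%) and 2 of 3 (65.6%) were higher. ENSG00000140740 changed by 1.06 ± 0.0825 (SE, adjusted p = 3.15e-21) and ENSG00000117118 by 0.82 ± 0.0665 (SE, adjusted p = 3.08e-20). ENSG00000023228 followed with 0.89 (adjusted p = 2.66e-18), ENSG00000152234 with 1.15 (adjusted p = 3.77e-17) and ENSG00000116459 with 1.15 (adjusted p = 5.75e-15). The 2 genes that fell were ENSG00000184752, with -0.67 ± 0.112 (SE, adjusted p = 1.02e-07), and ENSG00000164258, with -0.44 ± 0.143 (SE, adjusted p = 0.0036). The call of ENSG00000164258 ended when library total was left out of the fit (-0.06, adjusted p = 0.701).

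**Figure D4:**
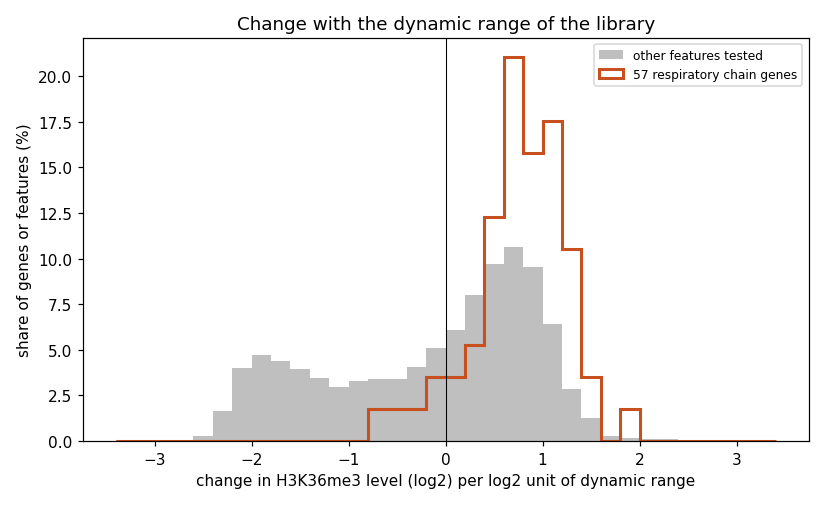
Distribution of the change in H3K36me3 level (log2) per log2 unit of dynamic range (horizontal axis), as the share of genes or features in each bin (vertical axis, %). The 57 genes, with a median of 0.77, lie to the right of all tested features, with a median of 0.18.

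With the library total, the counts summed over the 14000 features, the genes were divided, as were features in general. Shallower and deeper refer to this total. By the same test, 34 of 57 changed with the library total, where 65.4% of features did: 23 were higher in deeper libraries (29.3% of features) and 11 lower (36.1%). The median change per doubling of the total was 0.02 log2 units, against -0.02 over all features. ENSG00000010256 rose by 0.26 ± 0.0231 (SE, adjusted p = 1.25e-17), ENSG00000186010 by 0.19 (adjusted p = 3.12e-11), ENSG00000145494 by 0.16 (adjusted p = 1.09e-09), ENSG00000110717 by 0.37 and ENSG00000131495 by 0.16. Among those lower were ENSG00000023228 (-0.13, adjusted p = 1.48e-10), ENSG00000136521 (-0.16), ENSG00000164258 (-0.17), ENSG00000128609 (-0.15) and ENSG00000156467 (-0.18). All 7 genes of the stretch with the drop were among the 23, ENSG00000110717 included. The share of the stretch's own features that were higher was not counted, so those 7 have no background of their own. With the stretch left out of the fit, 16 of 50 genes were higher (26.9% of features) and 11 lower (38.2%). Without dynamic range in the fit the split turned to 12 higher (30% of features) and 25 lower (31.2%).

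The genes moved together only weakly from line to line. With both covariates removed from the levels, the mean Pearson correlation over 93 lines was 0.0953 across 1591 pairs of genes at least 20 table rows apart, against 0.00753 over all features. It was positive in 1122 pairs (70.5%), above 0.3 in 232 and below -0.3 in 43. These pairs were not counted over all features, so the counts cannot be read as particular to the genes. Without the 7 libraries with the earliest drop the mean was 0.061 and 63.9% of pairs were positive. In the 46 shallower libraries the mean was 0.107 and in the 47 deeper ones 0.076. It was 0.223 with no covariates removed and 0.0253 and 0.00839 with 5 and 10 principal components of all features removed in place of the covariates (all features 0.00875 and 0.00468). These correlations are descriptions over lines that share covariates, libraries and table, and carry no test.

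The first principal component of the 57 genes held 19.6% of their residual variance and the second 7.09%. Neither these shares nor the signs of the loadings below were set against those of other features. The 7 libraries with the earliest drop lay at one end of the first component, from -9.29 to -3.05, and all among the 18 lowest. The other 86 ran from -6.29 to 6.66, and without those 7 the first component held 15.9%. The 7 were picked by the row of ENSG00000213619, itself among the highest loadings, so their place is not separate from that choice. On the first, 50 genes had positive and 7 negative loadings. The highest were ENSG00000173660 (0.241), ENSG00000110955 (0.223), ENSG00000213619 (0.211) and ENSG00000178741 (0.209). The negative ones were ENSG00000184752, ENSG00000164258, ENSG00000130414, ENSG00000147684, ENSG00000139180, ENSG00000145494 and ENSG00000156467. ENSG00000173660 also had the highest mean correlation with the other genes, 0.226, and ENSG00000164258 (-0.165) and ENSG00000184752 (-0.156) the lowest.

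A small cluster of genes supplied the closest pairs at least 20 rows apart. ENSG00000173660 (5.58 to 7.30 log2 CPM, median 6.52) and ENSG00000178741 (5.01 to 6.35, median 5.56) had r = 0.668 and rho = 0.688 over 93 lines, and r = 0.652 without the 2 farthest lines. The shallower libraries gave 0.646, the deeper ones 0.687, and all lines gave 0.137 with 10 components removed. ENSG00000110955 (4.85 to 6.28, median 5.57) correlated with ENSG00000178741 at 0.650, with ENSG00000152234 at 0.644, with ENSG00000173660 at 0.601 and with ENSG00000178127 at 0.596. ENSG00000178127 (4.79 to 6.56, median 5.68) also correlated with ENSG00000116459 at 0.617, with ENSG00000178741 at 0.572 and with ENSG00000173660 at 0.563.

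Among pairs at least 20 rows apart, the remaining 2 of the 10 closest joined ENSG00000186010 to genes of the stretch with the drop, ENSG00000213619 (0.575) and ENSG00000167792 (0.557). Both were lower in the deeper libraries, at 0.336 and 0.362, than in the shallower ones, at 0.667 and 0.614, and these differences were not tested. Without the 7 libraries with the earliest drop they were 0.396 and 0.435. Those libraries were picked by the row of ENSG00000213619 and hold its 7 lowest levels, so the fall in its r is not separate from that choice. The most negative pairs were ENSG00000130414 with ENSG00000178127 (-0.582) and with ENSG00000173660 (-0.487), and ENSG00000184752 with ENSG00000179091 (-0.466). With 10 components removed, all 13 named pairs lay between -0.21 and 0.28.

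**Figure D5:**
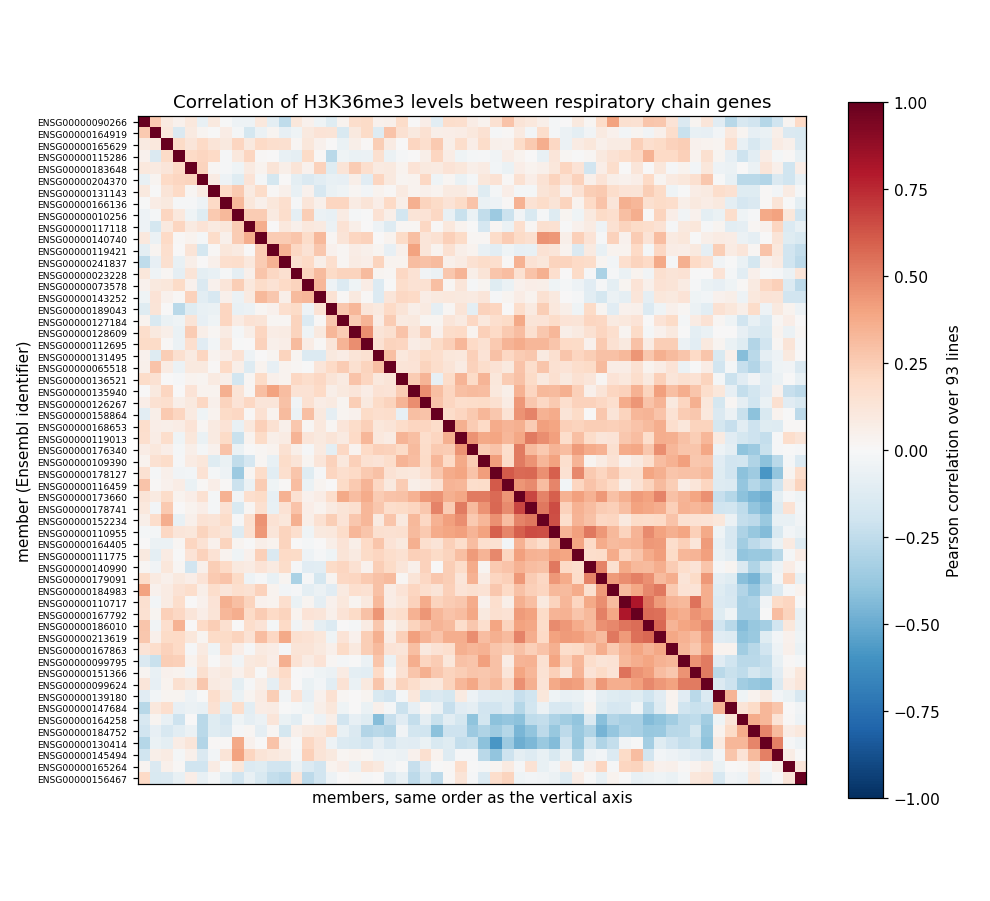
Pearson correlation over 93 lines (colour, from -1 to 1) of residual H3K36me3 levels between each pair of the 57 genes, in the same order on both axes. Positive values prevail (70.5% of the pairs at least 20 rows apart, a share not counted over all features). Few genes, among them ENSG00000164258 and ENSG00000184752, are set against the others.

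Most of the genes were closer to their place in the table than to each other. The mean correlation of a gene with the features in the adjacent rows was 0.324, against 0.277 for all features with the next row, and 49 of 57 genes were closer to their adjacent rows than to the other respiratory chain genes. An adjacent feature above 0.5 was found for 22 genes and above 0.8 for 6. None of these counts was made over all features, so they cannot be read as particular to the genes. ENSG00000186010 and ENSG00000258674 had r = 0.961, ENSG00000151366 and ENSG00000159063 had 0.898, and ENSG00000131495 and ENSG00000113119 had 0.897. ENSG00000110717 with ENSG00000110719 (0.873), ENSG00000213619 with ENSG00000110536 (0.857) and ENSG00000165264 with ENSG00000235453 (0.856) completed the 6. Among the 6, ENSG00000151366, ENSG00000110717 and ENSG00000213619 lie in the stretch with the drop, and no term for the drop was used for these adjacent rows. Whether such features overlap and share reads is not known here, so their values cannot be taken as separate. Among the genes of the set, ENSG00000110717 and ENSG00000167792, at rows 2572 and 2566, had r = 0.805, which became 0.184 with a term for the drop.

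Scores built from cell cycle markers were compared with the genes, a comparison added after the files had been seen. For G1, S and G2M the score is the mean standardised level of 95, 90 and 93 measured marker genes, none of them in the set, and it measures H3K36me3 over those genes, not cell cycle phase. With the G1 score 36 of 57 genes changed by edgeR's quasi-likelihood test (55.6% of features), 33 higher (31.7% of features) and 3 lower (23.9%). With the G2M score 35 changed (45.9% of features), 32 higher (26.4%) and 3 lower (19.5%). With the S score 15 changed (23.1% of features), 14 higher (17.6%) and 1 lower (5.54%). Median changes per SD of the score were 0.10, 0.10 and 0.05 log2 units for G1, G2M and S, against 0.02, 0.01 and 0.02 over all features.

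ENSG00000178127 had the smallest adjusted p for both G1, with 0.33 ± 0.0343 (SE, adjusted p = 1.6e-13), and G2M, with 0.34 (adjusted p = 5.28e-12). With G1, ENSG00000110955 (0.25), ENSG00000213619 (0.25), ENSG00000178741 (0.23) and ENSG00000116459 (0.20) followed. With G2M they were ENSG00000173660 (0.34), ENSG00000178741 (0.23), ENSG00000110955 (0.23) and ENSG00000152234 (0.17). For S the order was ENSG00000213619 with 0.18 (adjusted p = 2e-06), ENSG00000167792 with 0.35, ENSG00000110717 with 0.25, ENSG00000186010 with 0.11 and ENSG00000010256 with 0.09. ENSG00000164258, ENSG00000184752 and ENSG00000130414 were lower with both the G1 score (-0.17, -0.13 and -0.11) and the G2M score (-0.13, -0.12 and -0.10), and ENSG00000139180 was lower with S (-0.09, adjusted p = 0.0301).

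Part of the S calls lay in the stretch with the drop. The first 3 genes for S lie in the stretch. With the stretch left out, 10 of 50 genes were called with S, where 21.7% of features were. Of the 90 S markers, 10 lie in the stretch, as do 2 of the 95 G1 and 17 of the 93 G2M markers. Of the 13915 tested features, 1290 lie there. The 7 libraries in which ENSG00000213619 lay after the drop had S scores from -2.32 to -1.21 SD, all among the 13 lowest of 93, and a median total of 5461629 counts, against 15675148.5 in the other 86. Without these 7 libraries the S score called 8 genes (10.1% of features), 7 of them higher (8.41%). The G2M score then called 22 (28.6%), 19 of them higher (18.4%), and the G1 score 28 (45.6%), 24 of them higher (25.2%). These 7 libraries, picked by the row of ENSG00000213619, differ from the rest in drop, S score and median total at once. The part of the drop in these associations cannot be told apart from these and was not tested.

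These calls depended on what else was in the fit. With 5 principal components of the whole table added, 6 genes were called with G1 (11.4% of features), 5 with S (9.42%) and 4 with G2M (6.43%). With 10 components the counts were 3 (3.55%), 4 (5.42%) and 4 (4.28%). The shares of the genes were then near those of all features. Marker genes of each phase lie among the features from which the components are made.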

How the data were processed

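CUT&Tag for H3K36me3 was run on 93 lymphoblastoid cell lines, from 100000 frozen cells each and with 14 PCR cycles, per the labels' protocols. The authors deposited whole-number read counts for 14000 features by versioned Ensembl identifier and a second table of scores for the same features and lines. Per the submitters' processing notes, HISAT2 2.2.1, bedtools and hg38 are named, in roles that are not stated there. The counted interval, the read filters and the making of the deposited scores are not stated. The scores served only as an alternative to the counts in correlations.

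Tests were fitted on the whole table of counts and adjusted over all features tested (Benjamini-Hochberg, threshold 0.05). Counts were scaled with TMM in edgeR 4.0.16 (R 4.3.3). A feature was kept where 47 or more libraries had 10 or more counts (13915). Spread between lines was tested with edgeR's goodness of fit at the trended dispersion, and associations with edgeR's quasi-likelihood test, both adjusted for dynamic range and log2 library total. Correlations used residuals of log2 CPM (prior count 2) from these covariates. Cell cycle marker genes were the top 100 per phase of scran 1.30.0, by Ensembl identifier, chosen after the files had been seen. DESeq2 1.42.0 served as an alternative. Tests were run on simulated counts, with 100 planted changes (log2) of each size. Of these, 12 were recovered at 0.15 per SD of the G2M score and 100 at 0.4. For library total, 20 were recovered at 0.1 and 100 at 0.3, and for dynamic range 35 at 0.5 and 100 at 1.5. Simulated features were drawn independently at the trended dispersion, so spread shared between features was not covered. Nothing in the labels describes repeat libraries of a line, so the spread between lines holds line, culture and technical differences together. Total counts per library limit precision most at low levels, and intervals were not computed.

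The genes and the lists were chosen with earlier results of these data known. Named were every gene called variable, the 3 with the lowest dispersion ratio, the 5 with the smallest adjusted p in each direction of an association, and the 10 highest and 3 lowest pairs at least 20 rows apart. The rule also asked for the 2 highest and 2 lowest genes of each complex by level per kb. As identifiers could not be paired with symbols (0 of 14000), highest and lowest genes were taken over the whole set per feature, and complexes, levels per kb, regulator genes, other gene lists, tissue isoforms and cell type markers were not used. Genes with a far line, genes in the stretch of rows with the drop, loadings and adjacent features were named after their values had been seen.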

Additional observations from a re-analysis of the deposited data

How the results depend on the processing

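No paired analysis was possible because the lines form 1 group. Alternatives were DESeq2 size factors, no filter on low counts, leaving out the 10 shallowest libraries, other covariates and DESeq2's own tests. Leaving out the stretch of rows with the drop or the 7 libraries with the earliest drop, the split by depth and everything on cell cycle scores were added after the data had been seen. Counts of genes lower with a marker score were left out of the tally that follows, and some of them moved. Of 119 alternative values for the main counts and means, 26 moved. The other 93 stayed within 1.5 times of the first value or within its spread. For the mean correlation that spread was the SD over genes of each gene's mean correlation, 0.0856, which is wide. The fall from 0.0953 to 0.0253 with 5 components thus counts among the 93. The count of genes more variable than the trend went from 4 (18.4% of features) to 2 with 5 (18.3%) and to 2 with 10 principal components (17.9%), to 1 with the stretch left out (17.2%) and to 0 with DESeq2 (1.83%). The 23 genes higher and 11 lower with library total became 12 (30% of features) and 25 (31.2%) without dynamic range. Counts for dynamic range stayed within 1.5 times. With 5 and with 10 components, the G1 score called 6 and 3 genes (11.4% and 3.55% of features), 6 and 3 of them higher, the S score 5 and 4 (9.42% and 5.42%), 5 and 4 of them higher, and the G2M score 4 and 4 (6.43% and 4.28%), of which 4 and 3 were higher. Without the 7 libraries with the earliest drop, S called 8 (10.1%), 7 higher, and G2M 22 (28.6%), 19 higher. With no covariates the S score called 51 genes (74.5% of features), 49 of them higher (42%). The mean correlation was 0.223 with no covariates and 0.00839 with 10 components. The cause was not tested in any of these.

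Among single genes, 13 values changed sign, in settings with components except where stated. The dispersion ratio of ENSG00000173660 became -0.27 and -0.33. The change of ENSG00000130414 became 0.0482 and 0.0511 with G1 and 0.025 and 6.29e-05 with G2M. ENSG00000110717 became -0.00889 with S, and ENSG00000173660 -0.0742 with G2M, under 10 components. ENSG00000139180 became 0.0825 with S with no covariates. Under 10 components the correlation of ENSG00000173660 became -0.0339 with ENSG00000110955 and -0.00896 with ENSG00000178127, that of ENSG00000178127 with ENSG00000178741 became -0.21, and that of ENSG00000184752 with ENSG00000179091 became 0.0667. A further 36 values lost their call and kept their direction. Tests of 6 regulator genes and levels per kb were not run, because identifiers could not be paired with symbols.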
